A study of Arabidopsis thaliana with 6 samples.

Results

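The genes described here encode the plastid machinery that makes fatty acids and introduces their double bonds. They were chosen by identifier from the pathway as it is known in Arabidopsis. Earlier results of these data were known when these genes and the related lists below were chosen. Shares set beside those of all tested genes are therefore descriptions. The genes cover plastid pyruvate kinase, acetyl-CoA carboxylase and its inhibitory partners, the fatty acid synthase and acyl carrier proteins. Plastid desaturases, thioesterases, export proteins and the regulator WRI1 are also included. All 33 were present among the 32833 genes of the deposited table, and 32 had enough reads to be tested. RNA-seq of Arabidopsis thaliana seedlings, 8 days old, gave 3 WT (wild-type) and 3 phod2 mutant libraries. The labels do not say what change phod2 carries, and the library descriptions write LIP1 in its place, the name of a plastid lipoyl synthase that also stands in the series title. The study mentions high and low phosphate supply, which no single library's label names, so supply could not be compared.

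In plants nearly all fatty acids are built in plastids. Acetyl-CoA carboxylase turns acetyl-CoA into malonyl-CoA, and the synthase then adds 2 carbons at a time to a chain held by an acyl carrier protein. The chain leaves the cycle when a thioesterase cuts it off for export to the endoplasmic reticulum, or when it is passed directly to plastid lipids, where membrane-bound desaturases add further double bonds. Acetyl-CoA comes from pyruvate dehydrogenase, an enzyme complex that needs lipoic acid, and lipoic acid is itself made from an 8-carbon chain of the fatty acid synthase. Comparing the genotypes shows which transcripts of this pathway differ in the mutant.

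The libraries held 17319308 to 22417595 counted reads. Levels are given as FPKM (reads scaled by exon length and by the library's total), which allows genes of different length to be compared, and differences as log2 fold changes of phod2 relative to WT from edgeR's quasi-likelihood test on the counts. A gene was called higher or lower where its p, adjusted by Benjamini and Hochberg's method over all 20169 genes tested, did not exceed 0.05. The members were abundant, with a median of 56.1 FPKM in WT against 9.18 FPKM for all tested genes. The spread among libraries of a genotype was small, with a common coefficient of variation of 2.83% in edgeR, so small differences could be called. The labels do not say whether libraries came from separately grown plants, so this spread may be technical. LIP1P (AT5G08415), a plastid lipoyl synthase gene, was at 22.3, 20.9 and 23.2 FPKM in WT and 13.95, 14.2 and 12.9 FPKM in phod2 (log2 fold change -0.74 ± 0.06, SE). Whether it is the gene meant by LIP1 in the library descriptions was not tested. Markers of green shoot tissue and of roots were all detected. The summed level of 9 root hair markers was 44.2 to 50 FPKM in WT and 15 to 16 in phod2, and that of 10 endodermis markers was 115 to 125 and 52.1 to 55.5. All 9 root hair markers were lower, and 7 of the 10 endodermis markers, while SCR, SHR and ESB1 did not pass. The 9 green shoot markers summed to 38317.9 to 38556.0 FPKM in WT and 38561.7 to 38983.6 in phod2, with 3 of them higher and 4 lower, and 4 markers of the stomatal lineage to 28.1 to 29.8 and 32.2 to 35.7. In these bulk samples fewer cells of a type and less RNA per cell cannot be told apart, and the part of these marker differences in the results below was not tested.

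Plastid fatty acid genes differed between the genotypes by small amounts, and isoforms of the same step often differed from each other in direction or size. Of 32 tested members 4 were higher, 12 lower and 16 did not pass the test. That is 12.5% higher, where 20.9% of all tested genes were, and 37.5% lower, where 24.6% of all tested genes were. Among the 5506 tested genes at 20 FPKM or more in WT, the level of most members, 24.6% were higher and 32.5% lower, and of the 28 members at that level 4 were higher and 10 lower. The median log2 fold change of the tested members was -0.07 and that of all tested genes 0.01. The members' log2 fold changes ran from -0.60 to 0.12, so 0 tested members reached a 2-fold change in edgeR, where 7.51% of all tested genes passed both the adjusted p and 2-fold. In DESeq2 0 members passed both. At an unadjusted p under 0.05 edgeR found 17 members. FPKM values of the genotypes did not overlap for 16 of the 32, or 50%, against 54.1% of all tested genes.

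**Figure D1:**
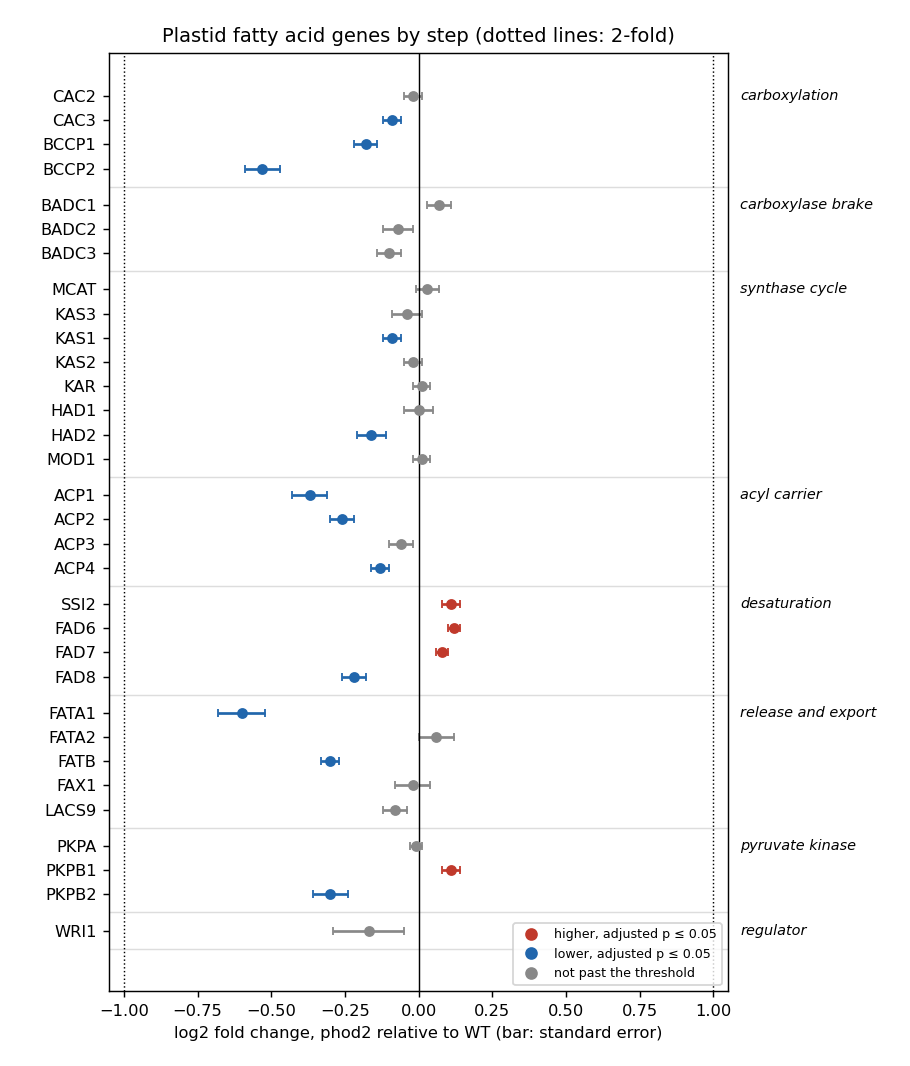
Log2 fold change of phod2 relative to WT (horizontal axis) for the 32 tested members, grouped by step of the pathway; bars are standard errors from edgeR and dotted lines mark 2-fold. BCCP2 and FATA1 lie furthest to the left at -0.53 and -0.60, and the red points are SSI2, FAD6, FAD7 and PKPB1 at 0.08 to 0.12. Of the synthase enzymes, HAD2 and KAS1 were called lower at -0.16 and -0.09, and the others sit close to 0.

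The plastid pyruvate kinase subunits, which make pyruvate from phosphoenolpyruvate, split by isoform. PKPB1 (AT5G52920), the main beta subunit, was at 99.4, 98.0 and 102 FPKM in WT and 107.5, 112 and 112 FPKM in phod2, and rose by 0.11 ± 0.03 on the log2 scale (SE, edgeR adjusted p = 0.00146). Every phod2 library lay above every WT library. PKPB2 (AT1G32440), the second beta subunit, was at 18.1, 17.7 and 19.7 FPKM in WT and 15.9, 15.1 and 15.6 FPKM in phod2, and fell by 0.30 on the log2 scale (SE 0.06, adjusted p = 7.8e-06). The alpha subunit gene PKPA (AT3G22960), the most abundant of the group, was at 181 ± 3.57 FPKM in WT and 184 ± 2.68 in phod2 (SD, n = 3 each), with a log2 fold change of -0.01 ± 0.02 (adjusted p = 0.74).

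Among the nuclear genes of plastid acetyl-CoA carboxylase, the biotin carrier subunit fell and the biotin carboxylase subunit did not pass the test. This enzyme is assembled from separate subunits. BCCP2 (AT5G15530), a biotin carboxyl carrier protein known from seeds, was at 25.8, 26.1 and 26.3 FPKM in WT and 18.8, 18 and 18.9 FPKM in phod2. The phod2 libraries were all lower, and the log2 fold change was -0.53 ± 0.06 (SE, edgeR adjusted p = 4.1e-12), or 0.692 times the WT level. Neighbouring genes overlap 16.3% of BCCP2, and whether reads were counted by strand is not given in the sources used here. BCCP1 (AT5G16390), the carrier found in all tissues, was at 68.9, 65.1 and 66.8 FPKM in WT and 58.3, 60.8 and 63.4 FPKM in phod2. It fell by 0.18 on the log2 scale (SE 0.04, adjusted p = 3.2e-05), again without overlap.

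CAC3 (AT2G38040), the alpha subunit of the carboxyltransferase, was at 99.5, 98.7 and 100.3 FPKM in WT and 98.8, 96.4 and 94.4 FPKM in phod2, with overlapping groups. Its log2 fold change was -0.09 ± 0.03 (adjusted p = 0.0059) and missed the threshold in 4 of the 15 alternatives, on library totals (adjusted p = 0.159), in both limma fits (0.215 and 0.218) and without phod2 replicate 3 (0.0542). CAC2 (AT5G35360), the biotin carboxylase, was at 109 ± 5.38 FPKM in WT and 111 ± 3.89 in phod2, with a log2 fold change of -0.02 ± 0.03 (adjusted p = 0.555). The beta subunit of the carboxyltransferase is encoded in the plastid by accD. Its transcript gave only 6 to 18 counts in a library (log2 fold change 0.19 ± 0.41, adjusted p = 0.736). At these counts a difference of the size seen in the other subunits was not detectable. Why the counts were low was not tested.

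The 3 BADC genes encode relatives of the biotin carrier that carry no biotin and slow the carboxylase when they take its place. BADC1 (AT3G56130), BADC2 (AT1G52670) and BADC3 (AT3G15690) were at 44.4, 50.9 and 35.3 FPKM on average in WT and 47.9, 49.9 and 34.0 FPKM in phod2. All 3 had overlapping groups and log2 fold changes of 0.07, -0.07 and -0.10, and none passed in edgeR or DESeq2, while 1 had an unadjusted p under 0.05 in edgeR. The adjusted p of BADC3 was 0.0555. Calls of these genes depended on single libraries. Without phod2 replicate 3, BADC1 was higher (0.11, adjusted p = 0.0417) and BADC2 lower (-0.12, adjusted p = 0.0385), and without phod2 replicate 2, BADC3 was lower (-0.12, adjusted p = 0.0449). On library totals BADC1 was also higher (0.11, adjusted p = 0.0237).

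A further plastid carboxylase gene outside these subunits showed a far larger difference. ACC2 (AT1G36180, chromosome 1, positions 13545965 to 13558600, plus strand, TAIR10) encodes an acetyl-CoA carboxylase made of a single long chain, as in the cytosol, but targeted to plastids. It drew 262, 220 and 296 reads in the WT libraries, against 1345, 1463 and 1628 in those of phod2. In FPKM these are 1.49, 1.62 and 1.74 against 9.52, 9.62 and 9.90. ACC2 rose 5.82-fold (log2 fold change 2.54 ± 0.06, SE, edgeR adjusted p = 4.6e-42), and over all alternatives its log2 fold change stayed between 2.03 and 2.60. The lowest of these came from limma on log2(FPKM + 1), where the pseudocount shrinks folds of low genes.

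ACC1 (AT1G36160), the cytosolic enzyme, lies 1949 bases upstream on the same strand and was at 32.4, 32.2 and 32.6 FPKM in WT and 29.8, 29.5 and 29.7 in phod2. It fell by 0.17 on the log2 scale (SE 0.03, adjusted p = 3.9e-07). ACC2 thus made up 4.40% to 5.07% of the summed ACC1 and ACC2 level in WT and 24.2% to 25% in phod2. The transcripts share 90.1% identity over 92.2% of ACC2, so some reads may match both, and how such reads were counted is not given in the sources used here. ACC2 belongs to a list of 10 acyl-CoA synthetase and single-chain carboxylase genes set beside the members. Of these, 9 were tested, 2 rose and 2 fell, near the 20.9% higher and 24.6% lower of all tested genes.

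The enzymes of the synthase cycle were nearly level. Of 8 tested, none was higher and 2 were lower, where 20.9% of all tested genes were higher and 24.6% lower. The median log2 fold change was -0.01, with a range of -0.16 to 0.03. The condensing enzymes KAS3 (AT1G62640), which starts the chain, and KAS2 (AT1G74960), which takes it from 16 to 18 carbons, had log2 fold changes of -0.04 ± 0.05 and -0.02 ± 0.03 (adjusted p = 0.564 and 0.575). KAS2 was at 52.1, 53.7 and 54.1 FPKM in WT and 50.9, 55.4 and 55.3 in phod2, and these groups overlap. KAS1 (AT5G46290), which carries out the steps between them, was at 109, 103 and 102 FPKM in WT and 97.3, 103 and 104 in phod2. These groups overlap, and its log2 fold change of -0.09 ± 0.03 (adjusted p = 0.0143) missed the threshold in 6 of the 15 alternatives, among them without WT replicate 1 (adjusted p = 0.174) and without phod2 replicate 1 (adjusted p = 0.155).

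HAD2 (AT5G10160), one of the pair of dehydratase genes, was at 45.0, 44.9 and 45.9 FPKM in WT and 42.6, 43.8 and 38.7 FPKM in phod2. Its log2 fold change of -0.16 ± 0.05 (adjusted p = 0.0123) missed the threshold in 4 alternatives, with adjusted p = 0.0733 in DESeq2, 0.0504 without WT replicate 3 and 0.151 without phod2 replicate 3, where the log2 fold change was -0.11. The other dehydratase gene, HAD1 (AT2G22230), had 0.00 ± 0.05. The malonyltransferase gene MCAT (AT2G30200), the ketoacyl reductase gene KAR (AT1G24360) and the enoyl reductase gene MOD1 (AT2G05990) had 0.03, 0.01 and 0.01, with adjusted p of 0.605, 0.821 and 0.86. For KAR and MOD1 all 3 phod2 libraries were above WT in FPKM, at 89.7 against 86.5 and 91.8 against 88.7 on average. FPKM is scaled by library totals, and the TMM factors used in the test, which were 0.985 to 0.987 in WT and at least 1.01 in phod2, change the scale between genotypes by about that much.

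Acyl carrier proteins, small proteins that hold the growing chain on a prosthetic arm, fell for 3 of the 4 tested isoforms. Over all tested genes 24.6% were lower. ACP4 (AT4G25050), the main isoform of leaves, was the most abundant member of all, at 253, 264 and 267 FPKM in WT and 247, 253 and 237 FPKM in phod2. It fell by 0.13 on the log2 scale (SE 0.03, edgeR adjusted p = 9.1e-05), and the groups came close without overlapping. ACP1 (AT3G05020) was at 50.7, 54.8 and 49.9 FPKM in WT and 43.9, 41.0 and 38.9 FPKM in phod2, a fall of 0.37 on the log2 scale (SE 0.06, adjusted p = 4.7e-07). ACP2 (AT1G54580) was at 114, 109 and 106 FPKM in WT and 90.1, 95.5 and 97.1 FPKM in phod2, a fall of 0.26 on the log2 scale (SE 0.04, adjusted p = 1.6e-08).

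ACP3 (AT1G54630), which lies near ACP2 on chromosome 1, was at 68.8, 74.4 and 73.1 FPKM in WT and 69.6, 71.1 and 72.1 FPKM in phod2, which overlap (log2 fold change -0.06 ± 0.04, adjusted p = 0.188). The ACP2 transcript is 88.5% identical to that of ACP3 over 81.2% of its length, so reads that match both could be assigned to either. ACP5 (AT5G27200) had counts of 2, 6 and 3 in WT and 2, 0 and 3 in phod2 and was not tested. The summed level of the 5 isoforms was 486, 503 and 497 FPKM in WT and 451, 460 and 445 FPKM in phod2. ACP4 supplied 52.0%, 52.5% and 53.8% of that sum in WT and 54.8%, 54.9% and 53.2% in phod2, which overlap.

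Among the members' steps, desaturation was the only one in which most members were higher. Of the 10 desaturases outside the members, given below, 1 rose. Of the 4 member genes, SSI2, FAD6 and FAD7 rose and FAD8 fell, where 20.9% of all tested genes were higher and 24.6% lower. SSI2 (AT2G43710), the soluble enzyme that puts the first double bond into an 18-carbon chain still on its carrier protein, was at 73.5, 76.1 and 71.4 FPKM in WT and 82.8, 79.9 and 83.3 FPKM in phod2 (log2 fold change 0.11 ± 0.03, SE, edgeR adjusted p = 0.00236). FAD6 (AT4G30950), which adds the second double bond to chains in plastid membrane lipids, was at 204, 206 and 206 FPKM in WT and 226, 228 and 234 FPKM in phod2 (0.12 ± 0.02, adjusted p = 4.9e-05). In each case every phod2 library exceeded every WT library.

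The third double bond is added by FAD7 and FAD8, close relatives of which FAD8 is known to be raised in the cold. FAD7 (AT3G11170) was at 176, 178 and 183 FPKM in WT and 195, 193 and 195 FPKM in phod2, a rise of 0.08 ± 0.02 on the log2 scale (adjusted p = 0.00814). FAD8 (AT5G05580) was at 59.35, 58.7 and 58.95 FPKM in WT and 52.6, 50.2 and 53.2 FPKM in phod2, a fall of 0.22 on the log2 scale (SE 0.04, adjusted p = 4.4e-07). The longest match between their transcripts is 86.6% identical over 50.8% of FAD7. The 4 desaturase genes together summed to 512 to 519 FPKM in WT and 551 to 565 FPKM in phod2.

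Desaturases outside the members were counted beside them. Of 10 tested, 1 rose, 3 fell and 6 did not pass, near the 20.9% higher and 24.6% lower of all tested genes. The gene that rose was FAD5 (AT3G15850), which desaturates 16-carbon chains in plastid galactolipid, at 79.7, 78.2 and 79.4 FPKM in WT and 93.3, 99.1 and 98.1 FPKM in phod2 (log2 fold change 0.25 ± 0.03, edgeR adjusted p = 5.9e-10). FAD2 (AT3G12120), the counterpart of FAD6 in the endoplasmic reticulum, fell by 0.19 on the log2 scale (SE 0.02, adjusted p = 1.1e-10), from 307 ± 4.11 to 276 ± 6.55 FPKM (SD, n = 3 each). FAD3 and FAD4 had log2 fold changes of -0.04 and 0.01 (adjusted p = 0.311 and 0.913). AAD2 and AAD6, low-level relatives of SSI2, fell by 0.94 and 0.87 on the log2 scale, and AAD2 is similar in sequence to AAD4, so its value is uncertain.

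Of the thioesterases, which release chains from the carrier protein, FATA1 and FATB fell and FATA2 did not pass the test. FATA1 (AT3G25110), which prefers the 18-carbon chain with 1 double bond, had the largest change of all tested members. It was at 11.1, 11.7 and 10.8 FPKM in WT and 8.14, 7.40 and 7.28 FPKM in phod2, with counts of 337 to 411 and 238 to 253. The log2 fold change was -0.60 ± 0.08 (SE, edgeR adjusted p = 1.4e-08), or 0.660 times the WT level. FATA2 (AT4G13050), with the same preference, was at 15.2, 16.3 and 14.4 FPKM in WT and 16.3, 17.1 and 15.6 FPKM in phod2, which overlap (0.06 ± 0.06, adjusted p = 0.488). FATB (AT1G08510), which prefers saturated chains, was at 75.6, 75.3 and 73.7 FPKM in WT and 61.2, 62.0 and 64.4 FPKM in phod2, a fall of 0.30 on the log2 scale (SE 0.03, adjusted p = 1.7e-12).

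Genes for export of the released chains did not pass. FAX1 (AT3G57280), an exporter in the inner envelope, was at 27.7 ± 2.47 FPKM in WT and 28.0 ± 0.641 in phod2 (SD, n = 3 each; log2 fold change -0.02 ± 0.06, adjusted p = 0.798). LACS9 (AT1G77590), which activates fatty acids at the outer envelope, was at 27.6 ± 1.30 and 26.9 ± 0.931 FPKM (-0.08 ± 0.04, adjusted p = 0.0993), and was lower without WT replicate 1 (-0.11, adjusted p = 0.0362). WRI1 (AT3G54320), a transcription factor that activates genes of glycolysis and fatty acid synthesis in seeds, was low, with counts of 175, 112 and 182 in WT and 124, 149 and 134 in phod2. Its log2 fold change was -0.17 ± 0.12 (adjusted p = 0.275), an error too wide for a change of the size seen in most members to be detectable.

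**Figure D2:**
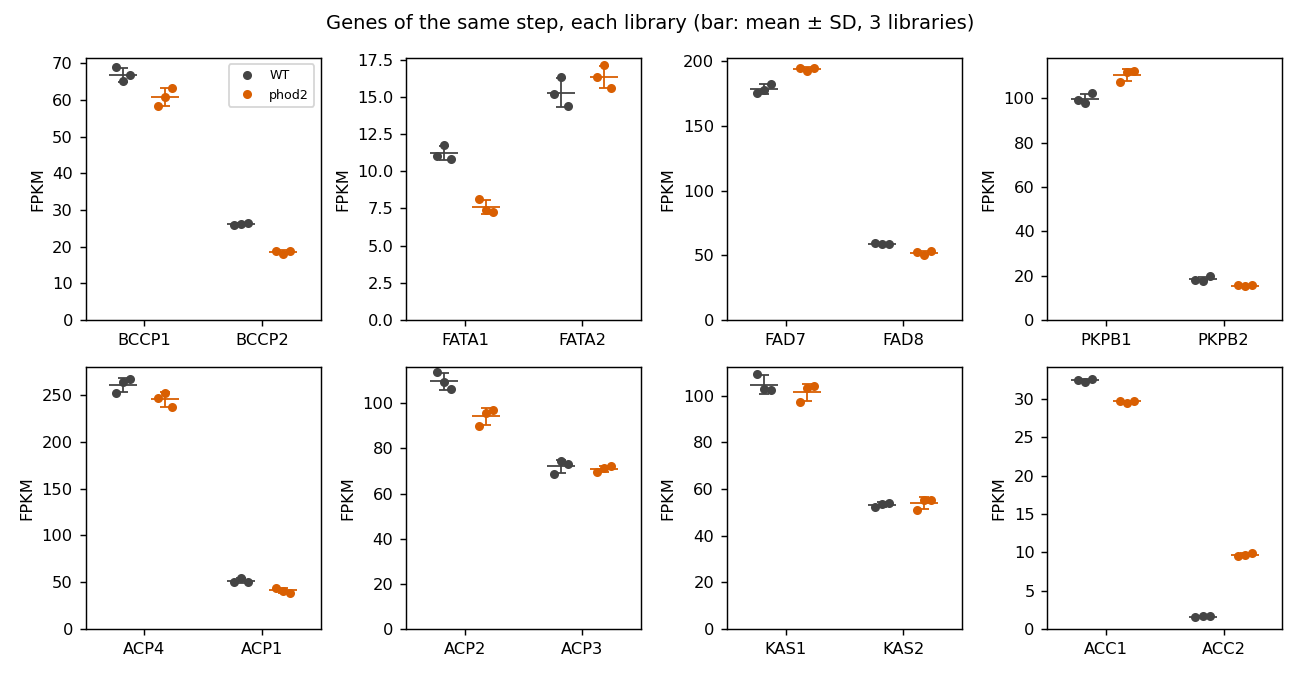
FPKM of each library (points) with mean and SD (bars, 3 libraries) for pairs of genes that encode the same kind of protein. WT is in grey and phod2 in orange, and each panel has its own vertical axis from 0. All phod2 points lie below WT for BCCP1, BCCP2, FATA1, FAD8, PKPB2, ACP1, ACP2, ACP4 and the cytosolic ACC1. They lie above WT for FAD7 and PKPB1, and FATA2, ACP3 and the KAS genes overlap. ACC2 rises from 1.49 to 1.74 FPKM to 9.52 to 9.90 FPKM.

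Ratios of isoforms within a library do not depend on how the library was scaled. The BCCP1 to BCCP2 ratio was 2.67, 2.49 and 2.53 in WT and 3.10, 3.38 and 3.35 in phod2. The FATA1 to FATA2 ratio was 0.728, 0.719 and 0.754 in WT and 0.499, 0.433 and 0.467 in phod2. The FAD7 to FAD8 ratio was 2.96, 3.03 and 3.10 in WT and 3.70, 3.84 and 3.66 in phod2, and the PKPB1 to PKPB2 ratio was 5.48, 5.53 and 5.18 in WT and 6.78, 7.42 and 7.21 in phod2. In these 4 pairs the genotypes did not overlap, and the isoform with the lower level in WT lost ground to the other. Other pairs went the opposite way. ACC2, far below ACC1 in WT, gained on it. ACP2, above ACP3 in WT, had a log2 fold change of -0.26 against -0.06 for ACP3. The share of non-overlapping ratios over other gene pairs was not computed, and single genes did not overlap in 54.1% of all tested.

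The log2 differences of the ratios were 0.35 for BCCP1 to BCCP2, -0.66 for FATA1 to FATA2, 0.30 for FAD7 to FAD8 and 0.40 for PKPB1 to PKPB2. Each had p = 0.10 in a 2-sided exact permutation test over the 6 libraries, the smallest value that 3 against 3 allows, and adjusted p = 0.15 over the 6 values compared. The KAS1 to KAS2 ratio (1.97 ± 0.113 in WT, 1.88 ± 0.0266 in phod2, SD, n = 3 each) and the ACP4 share overlapped between genotypes (exact permutation p = 0.20 each).

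**Figure D3:**
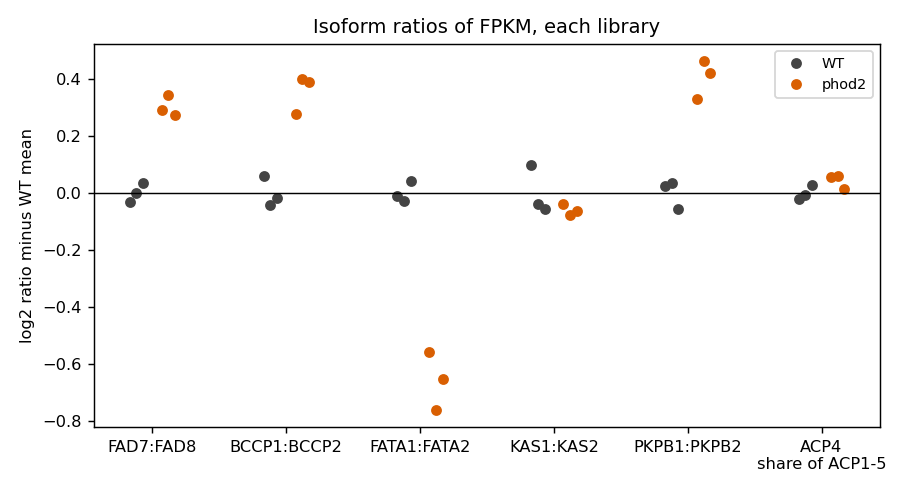
Log2 ratio of the FPKM of paired isoforms in each library, minus the mean of the WT libraries, with WT in grey and phod2 in orange; the last column is the share of ACP4 in the summed ACP1 to ACP5 level. The phod2 points of FAD7:FAD8, BCCP1:BCCP2 and PKPB1:PKPB2 lie above all WT points, those of FATA1:FATA2 lie below, and KAS1:KAS2 and the ACP4 share overlap.

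Added up by step, some sums were lower in phod2 and others higher. The summed level of the 33 members was 2399.2, 2399.2 and 2404.2 FPKM in WT and 2368.4, 2396.0 and 2388.6 FPKM in phod2, a ratio of means of 0.993, with every phod2 library below every WT library. The carboxylase subunits summed to 302 ± 7.11 FPKM in WT and 286 ± 4.28 in phod2, the acyl carrier proteins to 495 ± 8.31 and 452 ± 7.51, and the release and export genes to 157 ± 3.89 and 141 ± 0.566 (SD, n = 3 each), each with phod2 below WT in every library. Desaturases summed to 517 ± 3.69 and 558 ± 7.05, and pyruvate kinases to 299 ± 6.39 and 310 ± 4.05, with phod2 above WT. The BADC genes (131 and 132) and the synthase cycle (498 and 501) overlapped. These sums are descriptions on the scale of library totals and were not tested.

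**Figure D4:**
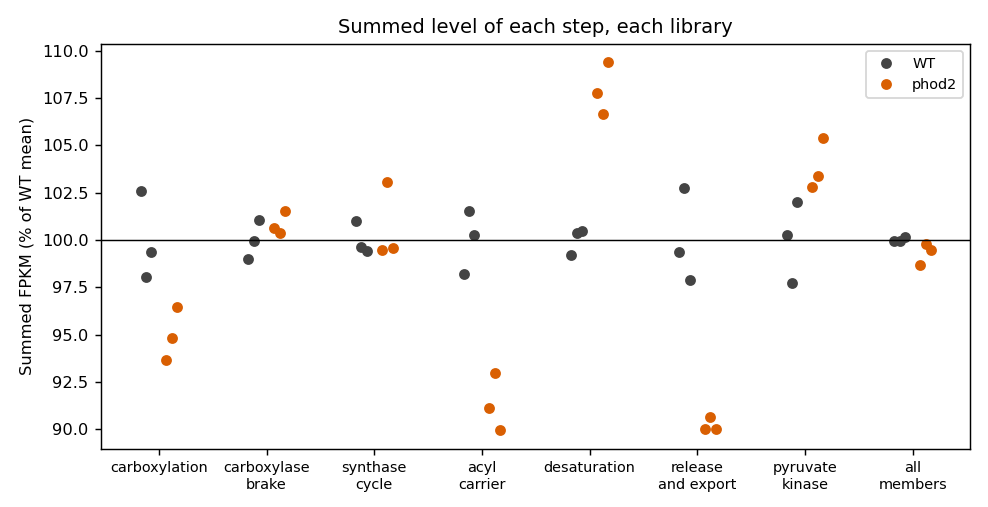
Summed FPKM of the members of each step in each library, as a percentage of the WT mean of that step (vertical axis, which does not start at 0). The regulator WRI1 is not shown as a step. WT is in grey and phod2 in orange. Acyl carrier proteins and the release and export genes lie lowest in phod2, desaturases highest, and the sum over all 33 members is 0.993 times the WT mean. The values are scaled by library totals, without TMM factors.

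Genes that feed the pathway were counted beside it. In a list of 20 plastid supply genes, all tested, 1 rose, 9 fell and 10 did not pass, where 20.9% of all tested genes were higher and 24.6% lower. In DESeq2 1 rose and 7 fell. The median log2 fold change of the list was -0.07, that of all tested genes 0.01. Besides LIP1P, ENO1 (AT1G74030), the plastid enolase that makes phosphoenolpyruvate, fell from 28.0 ± 1.00 to 21.1 ± 1.17 FPKM (SD, n = 3 each; log2 fold change -0.45 ± 0.05, edgeR adjusted p = 2.3e-11). PDHE1B1 (AT1G30120), a subunit of plastid pyruvate dehydrogenase, fell by 0.19 on the log2 scale (SE 0.03, adjusted p = 7.6e-06). PDHE1B2, a second gene for the same subunit, did not pass (0.03 ± 0.04, adjusted p = 0.492). Of the other genes of this complex, PDHE1A and LTA2 were lower in edgeR, and EMB3003, PTLPD1 and PTLPD2 did not pass. The gene of the list that rose was GPT2 (AT1G61800), a glucose-6-phosphate importer of plastids. It had a low level of 5, 9 and 9 counts in WT and 22, 32 and 35 counts in phod2 (log2 fold change 1.96 ± 0.36, adjusted p = 6.1e-06). With limma and a pseudocount of 1 the value was 0.59.

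Genes that use plastid fatty acids for plastid lipids were counted in the same way. Of 10 genes of plastid lipid assembly and lipid import, 6 rose, none fell and 4 did not pass in edgeR, against the same 20.9% higher and 24.6% lower over all tested genes. Their median log2 fold change was 0.15, and 7 had an unadjusted p under 0.05. In DESeq2 3 of them rose and none fell. DGD1 (AT3G11670), the main digalactolipid synthase, rose from 5.72 ± 0.609 to 11.4 ± 0.690 FPKM (SD, n = 3 each; log2 fold change 0.96 ± 0.07, edgeR adjusted p = 2.9e-18), and MGD1 (AT4G31780), the main monogalactolipid synthase, rose from 64.7 ± 1.22 to 77.9 ± 0.742 FPKM (0.23 ± 0.03, adjusted p = 7.9e-09). SFR2, which remodels galactolipids under freezing, rose by 0.18 ± 0.03 on the log2 scale, and TGD4, a lipid import protein, had 0.16 ± 0.06 (adjusted p = 0.0169 in edgeR). TGD4 missed the threshold in DESeq2 (adjusted p = 0.0707), without WT replicate 1 (0.0811) and without phod2 replicate 3 (0.0512).

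Promoters were read from TAIR10.1, whose gene coordinates equal those of the table for 32531 of 32547 nuclear genes found in both. They are shown for the isoform pairs that hold the 2 members with the largest falls, BCCP and FATA, and for FAD6, the member with the highest log2 fold change. Each line gives the 200 bases before the annotated start of the gene, 5′ to 3′ on the gene's strand, with matches to searched motifs in capitals.
BCCP1: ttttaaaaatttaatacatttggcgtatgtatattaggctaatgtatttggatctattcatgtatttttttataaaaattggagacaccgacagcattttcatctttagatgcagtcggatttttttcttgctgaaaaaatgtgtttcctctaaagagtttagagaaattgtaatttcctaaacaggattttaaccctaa
BCCP2: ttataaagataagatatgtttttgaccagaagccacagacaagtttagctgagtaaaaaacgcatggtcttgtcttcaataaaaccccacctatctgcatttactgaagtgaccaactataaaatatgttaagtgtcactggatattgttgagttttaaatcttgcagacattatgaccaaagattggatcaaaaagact
FATA1: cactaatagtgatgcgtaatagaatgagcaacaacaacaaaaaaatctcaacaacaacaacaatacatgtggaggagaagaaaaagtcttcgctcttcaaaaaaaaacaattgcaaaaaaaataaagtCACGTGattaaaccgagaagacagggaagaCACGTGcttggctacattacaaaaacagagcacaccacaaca
FATA2: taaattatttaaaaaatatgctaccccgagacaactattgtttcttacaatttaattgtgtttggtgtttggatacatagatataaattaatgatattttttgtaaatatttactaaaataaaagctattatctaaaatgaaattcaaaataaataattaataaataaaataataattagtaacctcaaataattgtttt
FAD6: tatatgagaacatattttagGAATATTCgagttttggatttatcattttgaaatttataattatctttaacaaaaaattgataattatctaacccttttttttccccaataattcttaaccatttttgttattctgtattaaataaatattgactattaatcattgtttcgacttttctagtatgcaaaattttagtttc
The stretches lie at chr5:5363298-5363497 (minus strand), chr5:5038363-5038562 (plus), chr3:9148526-9148725 (minus), chr4:7617228-7617427 (plus) and chr4:15059847-15060046 (minus).

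Motifs were counted on both strands from 250 bases before to 50 bases after each gene's start. The AW-box bound by WRI1 (CNTNG, then 7 bases of any kind, then CG) was found for 5 of 33 members, 2 of them among the 12 lower and 0 among the 4 higher, and in 11.9% of 27432 promoters. The P1BS element bound by the phosphate regulator PHR1 (GNATATNC) was found for 3 members, 1 lower, 1 higher and 1 that did not pass, and in 6.25% of all promoters. The match of FAD6 begins 180 bases before the gene. The G-box (CACGTG), searched for after the sequences had been seen, was found for 3 of 33 members, all among the 12 lower (FATA1, ACP1 and CAC3). It was found in 7.68% of all promoters and in 8.78% of those of tested genes. FATA1 holds 2 of them, beginning 72 and 42 bases before the gene, and FATA2 holds none in this window. In CAC3 the G-box matches and the AW-box match lie at or just after the gene's start and overlap. A match is a run of letters and not a known site.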

How the data were processed

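RNA of 6 libraries was compared, 3 of WT and 3 of phod2, grouped and numbered by the sample titles. The deposited table gives whole-number counts for each gene and, per the file headers, FPKM. The authors' FPKM equal count over exonic gene size and library total to within 0.005, so they carry no further scaling. The aligner, the counting program and whether strand was used are unstated (not given in the sources used here). As genome build, the submitters' processing notes list mm10, a mouse build that does not match the Arabidopsis identifiers; coordinates follow the table and match TAIR10.1.

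edgeR 4.0.16 in R 4.3.3 tested the counts (quasi-likelihood, filterByExpr, TMM, genotype as the only term, 2-sided), with Benjamini-Hochberg adjustment over 20169 genes. Standard errors were taken as the size of the log2 fold change over the square root of F. The test step was checked on simulated counts. The labels do not say whether libraries came from separately grown plants, so the p-values rest on the spread among libraries, which may be technical. No pair of libraries within a genotype looked like 1 library deposited again (chi-square per degree of freedom 1.57 to 2.06).

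Named genes are all members, and of each related list up to 4 with the lowest adjusted p plus LIP1P, accD and FAD2 to FAD5; values per library go to the called members and those in a ratio or share. Members and lists were chosen with earlier results of these data known. ABI3, LACS5, the plastid pyruvate dehydrogenase genes other than PDHE1B1 and the G-box were singled out after values or sequences were seen. Alternatives were DESeq2 1.42.0, limma 3.58.1 on log2(FPKM + 1) and log2(FPKM + 0.1), other scalings and filters, robust shrinkage, a replicate block and each library left out. Ratios were tested with scipy 1.17.1. Transcripts were compared by BLAST 2.17.0 with TAIR10.1, and no member matched another gene with 95% identity or more over 30% or more of its length.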

Additional observations from a re-analysis of the deposited data

How the results depend on the processing

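Over 15 alternatives 13 of the 16 called members passed the threshold in every one, none of the 16 changed sign, and CAC3, KAS1 and HAD2 missed it in at least one. The 4 members BADC1, BADC2, BADC3 and LACS9 passed in at least one. The number of synthase cycle genes lower was 0 in DESeq2 and on library totals, 1 in both limma fits, and 1 to 2 when a library was left out. The number of BADC genes higher was 1 on library totals and 0 to 1 without a library, and the number lower was 1 when genes needed 5 FPKM in 3 libraries to be tested and 0 to 1 without a library. In DESeq2 3 plastid lipid assembly genes were higher, and 1 WRI and seed regulator. The cause was not tested. The 6 isoform ratios kept their direction on counts and without any single library.

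Sign changes occurred in 9 members that were not called, and in MTACP1, FAD3, FAD4 and accD, which are related genes and not members. On library totals the log2 fold changes were 0.018 for CAC2, 0.004 for KAS3, 0.017 for KAS2, 0.037 for HAD1, 0.020 for FAX1, 0.030 for PKPA, 0.007 for MTACP1 and 0.001 for FAD3. With limma on log2(FPKM + 1) they were 0.019, 0.006, 0.014, 0.037, 0.016, 0.030, 0.006 and 0.003, and with a pseudocount of 0.1 they were 0.019, 0.007, 0.014, 0.038, 0.017, 0.031, 0.007 and 0.003. HAD1 was at 0.000 in DESeq2. With a library left out the ranges were -0.046 to 0.020 for CAC2, -0.079 to 0.043 for FAX1, -0.008 to 0.071 for MCAT, -0.019 to 0.023 for HAD1, -0.008 to 0.019 for MOD1, -0.047 to 0.015 for KAS2, -0.001 to 0.026 for KAR, -0.082 to 0.021 for KAS3, -0.033 to 0.078 for FAD4 and -0.188 to 0.470 for accD. Same-numbered libraries of the genotypes did not deviate together (r = -0.0212, 0.00965 and -0.00777), and with the replicate block the same 16 members were called, with 4 higher and 12 lower.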

Other observations

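Beside ACC1 and ACC2, the list of acyl-CoA synthetases and single-chain carboxylases held 2 further genes that passed. LACS7 (AT5G27600), an acyl-CoA synthetase of peroxisomes, rose from 11.1 ± 0.597 to 14.3 ± 0.775 FPKM (SD, n = 3 each; log2 fold change 0.32 ± 0.06, edgeR adjusted p = 1.2e-05). LACS8 (AT2G04350) fell from 15.7 ± 0.372 to 13.8 ± 0.555 FPKM (-0.23 ± 0.05, adjusted p = 3.7e-04). LACS5 was at 0 counts in all libraries. Of 5 genes of mitochondrial fatty acid synthesis, 1 rose and 1 fell, near the 20.9% higher and 24.6% lower of all tested genes. The condensing enzyme gene MTKAS had a log2 fold change of 0.30 ± 0.08 (edgeR adjusted p = 8.8e-04), a rise. The acyl carrier protein gene MTACP2 had -0.14 ± 0.04 (adjusted p = 0.00556). It missed the threshold on library totals (adjusted p = 0.0502), in both limma fits (0.0538 and 0.0553) and without phod2 replicate 3 (0.0756). MTACP1 and MTPPT had -0.03 and 0.26 (adjusted p = 0.596 and 0.083).

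WRI4 (AT1G79700), a relative of WRI1 known for wax synthesis in stems, was the most abundant of the WRI genes measured here. It fell from 35.9 ± 1.86 to 26.9 ± 0.300 FPKM (SD, n = 3 each; log2 fold change -0.46 ± 0.05, edgeR adjusted p = 7.6e-12). WRI3 and FUS3 were low, with log2 fold changes of -0.58 and 0.89 (adjusted p = 0.0507 and 0.051). With a library left out the WRI3 value ran from -0.27 without phod2 replicate 2 (adjusted p = 0.411) to -1.12 without phod2 replicate 3 (adjusted p = 0.00111), and 41.9% of the gene is overlapped by another gene. The seed regulator gene ABI3 had too few counts for edgeR and was higher in DESeq2 (adjusted p = 0.00997), with counts of 3, 1 and 4 in WT and 7, 20 and 13 in phod2. Of 6 seed markers set beside it, 2 were tested and 1 rose. The 6 summed to 2.31 to 2.63 FPKM in WT and 4.85 to 5.36 in phod2, a rise carried mostly by 1 gene. CRU1 rose from 0.9 ± 0.387 to 3.4 ± 0.095 FPKM (SD, n = 3 each), and OLEO1 (0.55 and 0.497 FPKM) did not pass. Of the untested markers, CRU3 and EM1 were higher on average in phod2 and SESA1 lower, all at 0.35 FPKM or less. EM6 was at 0.667 and 0.663 FPKM. The part of these seed markers in the members' values was not tested.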
